A study of Rattus norvegicus with 30 samples.

Results

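The p53 target genes were taken as Mdm2, Aen, Sfn, Cdkn1a, Ccng1, Bax, Gadd45a, Btg2 and Phlda3, and were followed in cultured rat hepatocytes dosed with methapyrilene. A gene was read from the array's probe sets annotated to it alone, and where several qualified, from the one with the highest mean over all 30 arrays. Of the 9 genes, 7 had such a probe set, among 10222 genes tested. The single Bax probe set is annotated to a further gene as well, and the annotation used here names no probe set for Btg2, so neither has a value below.

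Methapyrilene is an antihistamine that was withdrawn because it causes liver tumours in rats. Frozen hepatocytes of male Sprague Dawley rats were thawed, cultured on collagen and dosed on day 3. They received the vehicle DMSO, 3 uM methapyrilene or 100 uM methapyrilene, and RNA was harvested 24 or 48 h later, which gives 6 groups of 5 wells (n = 5 in every group, 1 array per well). The labels give the control's DMSO as 1%, but the protocol uses that figure for the concentrated dosing solutions, so its share in the medium is uncertain. The cells were bought frozen and no animal is named, so every p-value measures the spread between wells.

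p53 is a transcription factor that is held at a low level in unstressed cells and accumulates after DNA damage and other stress. It binds pairs of a short palindromic sequence near its target genes and raises their transcription. The targets slow the cell cycle, start apoptosis or aid repair, and one of them, Mdm2, encodes the ubiquitin ligase that marks p53 for destruction, which closes a negative feedback loop. In liver toxicology these genes serve as readouts of genotoxic stress, though p53 also answers other stress. The arrays measured RNA only, and DNA damage was not tested.

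The sequence before the transcription start is shown for the 4 genes that hold a match to the p53 half-site, and for Mdm2, the feedback gene, which holds none. Each run is the 250 bases before the start, from RefSeq on build GRCr8, written 5' to 3' on the gene's strand. Capitals mark an exact match to the p53 half-site consensus of 10 bases, which reads the same on both strands. The positions are chr7:55200792-55201041 on the minus strand for Mdm2, chr1:142224283-142224532 on the plus strand for Aen and chr20:7150682-7150931 on the plus strand for Cdkn1a. Those of Ccng1 and Gadd45a are chr10:25684877-25685126 and chr4:97486800-97487049, both on the minus strand.
Mdm2: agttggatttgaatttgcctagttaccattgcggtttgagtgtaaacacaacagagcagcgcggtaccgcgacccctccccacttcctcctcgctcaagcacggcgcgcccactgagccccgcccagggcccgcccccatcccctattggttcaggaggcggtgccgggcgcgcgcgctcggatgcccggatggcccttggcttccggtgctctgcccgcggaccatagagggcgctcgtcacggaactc
Aen: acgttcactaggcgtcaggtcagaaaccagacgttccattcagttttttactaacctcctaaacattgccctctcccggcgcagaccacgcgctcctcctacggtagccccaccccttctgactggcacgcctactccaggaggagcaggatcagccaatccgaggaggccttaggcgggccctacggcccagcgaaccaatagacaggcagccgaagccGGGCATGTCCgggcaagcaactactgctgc
Cdkn1a: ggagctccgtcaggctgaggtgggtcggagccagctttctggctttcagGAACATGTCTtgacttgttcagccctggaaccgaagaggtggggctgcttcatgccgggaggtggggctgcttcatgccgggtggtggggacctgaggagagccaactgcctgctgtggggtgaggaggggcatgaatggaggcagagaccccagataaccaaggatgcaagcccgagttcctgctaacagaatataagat
Ccng1: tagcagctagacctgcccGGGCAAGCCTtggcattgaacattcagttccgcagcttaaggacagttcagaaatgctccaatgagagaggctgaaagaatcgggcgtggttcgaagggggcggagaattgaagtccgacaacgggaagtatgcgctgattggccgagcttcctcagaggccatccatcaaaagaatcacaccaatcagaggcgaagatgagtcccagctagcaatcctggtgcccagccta
Gadd45a: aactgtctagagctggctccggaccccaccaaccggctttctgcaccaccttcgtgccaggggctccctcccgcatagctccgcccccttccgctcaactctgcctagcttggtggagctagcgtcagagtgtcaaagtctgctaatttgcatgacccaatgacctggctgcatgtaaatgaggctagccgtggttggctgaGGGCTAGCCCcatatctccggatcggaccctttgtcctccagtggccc
The match began 30 bases before the start in Aen, 48 in Gadd45a, 201 in Cdkn1a and 232 in Ccng1.

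A promoter window, with 50 bases after the start added to those shown, was held for 8 of the 9 genes, Bax being the one without. The half-site was found in 4 of these 8 windows and in 7.98% of the 33469 windows of all genes. In the windows of Mdm2, Sfn, Phlda3 and Btg2 these letters were not found. A full site, meaning a pair of exact half-site matches at most 13 bases apart, was in none of the 8 windows and in 0.0598% of all windows. Pairs with a mismatch were not counted. The bases just before the match in Ccng1 and just after it in Cdkn1a come near the consensus but are not exact. The windows are short. The known p53 response element of Mdm2 lies inside the gene, in the first intron. The best known elements of human CDKN1A lie further upstream of the human start than the bases searched here. Whether the match in rat Cdkn1a is the counterpart of one of them was not tested. Of 29 other p53 target genes with a window, 4 held the half-site.

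At 100 uM, 6 of the 7 measured p53 target genes rose at 24 h and the same 6 rose at 48 h, with none lower. Sfn, Mdm2 and Aen rose most, by 3.02-fold, 2.43-fold and 2.39-fold at 24 h. Ccng1, Phlda3 and Gadd45a rose by 1.64-fold, 1.46-fold and 1.41-fold. Cdkn1a was the gene not called at either time. For comparison, 19.8% of all 10222 genes were called higher and 15.8% lower at 24 h, and 18.9% and 14.5% at 48 h. The median log2 fold change of the 7 genes was 0.71 at 24 h and 0.64 at 48 h, against 0.043 and 0.049 over all genes tested. The 7 genes were chosen with earlier results of these data known, so these comparisons only describe them. Calls rest on limma and an adjusted p (Benjamini-Hochberg over all genes tested) under 0.05, and values below are log2 fold changes ± SE from that fit unless called signals. RNA was drawn from whole wells, so a change in the number of cells of a type and a change in RNA per cell cannot be told apart.

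**Figure D1:**
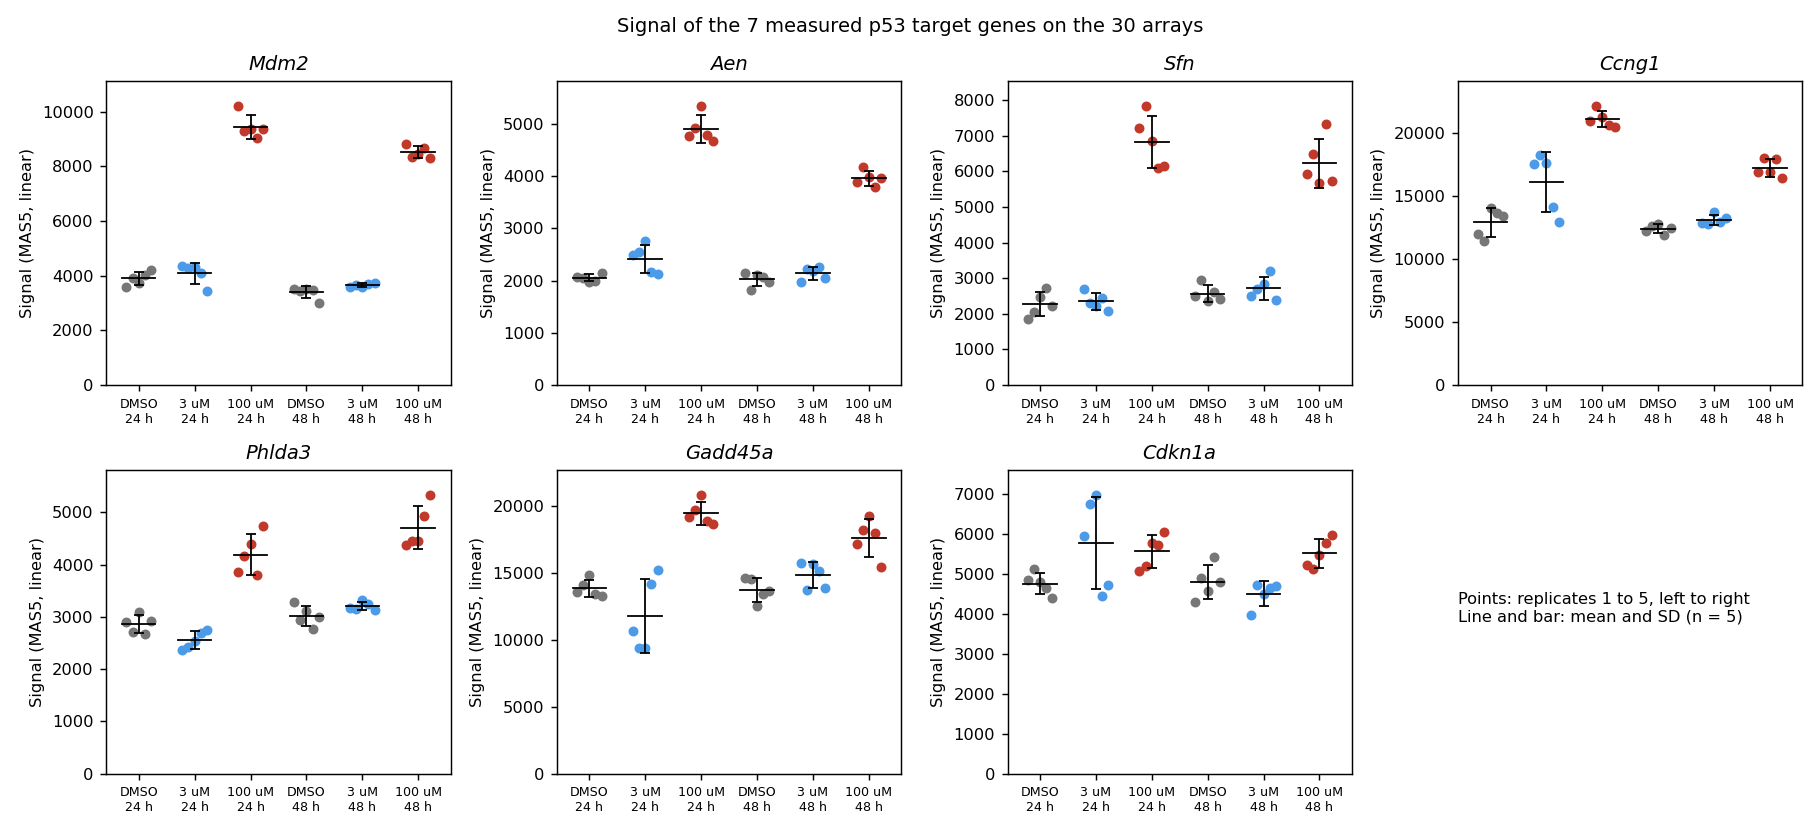
Probe set signal (MAS5, linear scale) of the 7 measured p53 target genes on the 30 arrays, by dose and time. Points are the 5 wells of a group, the line is the mean and the bar the SD (n = 5). For Mdm2, Aen and Sfn the 100 uM wells lie far above all others, while for Cdkn1a they overlap the DMSO wells at both times.

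Mdm2 gave signals of 3601, 3919, 3752, 4027 and 4209 in the DMSO wells at 24 h. In the 100 uM wells it gave 10209, 9307, 9384, 9028 and 9361. Every dosed well was more than double the highest DMSO well, and the group means were 3901 ± 236 and 9458 ± 443 (SD). At 48 h the DMSO wells read 3510, 3453, 3501, 3488 and 2998, and the 100 uM wells 8819, 8329, 8466, 8669 and 8309. The log2 fold change was 1.28 ± 0.060 at 24 h (adjusted p = 1.89e-17) and 1.33 ± 0.060 at 48 h (adjusted p = 6.51e-18). Ranked from the highest fold change over all genes tested, Mdm2 stood 42nd at 24 h and 32nd at 48 h of 10222. Its other 2 probe sets were called higher too, with 0.85 ± 0.065 and 1.10 ± 0.20 at 24 h and 0.75 ± 0.065 and 1.33 ± 0.20 at 48 h.

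Sfn encodes 14-3-3 sigma, which keeps the mitotic kinase complex out of the nucleus and so holds cells before mitosis. Its DMSO signals at 24 h were 1867, 2044, 2475, 2723 and 2227. The 100 uM signals were 7215, 7835, 6846, 6097 and 6141. The lowest dosed well was thus above the highest control well by more than the whole control range. At 48 h the DMSO wells read 2500, 2956, 2351, 2622 and 2405 against 5917, 6501, 5670, 7321 and 5723 at 100 uM. Sfn had the largest rise of the 7 genes at 24 h, 1.60 ± 0.098 (adjusted p = 9.47e-15), and was 14th of all genes tested. At 48 h it was at 1.28 ± 0.098 (adjusted p = 1.71e-12), 39th of all genes tested.

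Ccng1 encodes cyclin G1, an atypical cyclin that recruits a phosphatase to Mdm2. It is the brightest of these probe sets together with Gadd45a, although signals of different probe sets are not comparable as levels. At 24 h DMSO wells gave 11997, 11436, 14052, 13693 and 13449, and 100 uM wells 21018, 22172, 21295, 20662 and 20524. The groups did not overlap, and the rise was 0.71 ± 0.069 (adjusted p = 4.24e-10). At 48 h the ranges were 11922 to 12837 for DMSO and 16426 to 18070 for 100 uM, again apart, with a rise of 0.48 ± 0.069 (adjusted p = 1.33e-06).

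Gadd45a binds the proliferation clamp protein and the mitotic kinase complex and is induced by growth arrest and DNA damage. Its 24 h DMSO signals were 13560, 14133, 14825, 13450 and 13308, and those at 100 uM were 19200, 19731, 20852, 18930 and 18660. The rise of 0.49 ± 0.092 (adjusted p = 6.06e-05) left a wide gap between the groups. The gap was narrower at 48 h, with DMSO wells from 12525 to 14607 and 100 uM wells from 15474 to 19271. The rise there was 0.36 ± 0.092 (adjusted p = 0.0024), the smallest of the 6 called.

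Of the genes tied to apoptosis, Aen encodes an exonuclease that degrades DNA in dying cells. Its DMSO wells at 24 h gave 2073, 2050, 1981, 2000 and 2151, a tight group with an SD of 67.3. The 100 uM wells gave 4775, 4923, 5340, 4796 and 4665. Aen rose by 1.26 ± 0.068 (adjusted p = 3.61e-16), and its dimmer probe set by 1.13 ± 0.15 (adjusted p = 2.87e-07). At 48 h the DMSO wells read 2152, 1821, 2105, 2062 and 1967 and the 100 uM wells 3878, 4182, 3990, 3791 and 3962. The rise at 48 h was 0.97 ± 0.068 (adjusted p = 1.56e-13), and 1.06 ± 0.15 on the dimmer probe set.

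Phlda3 encodes a small lipid-binding protein that keeps the survival kinase Akt off the membrane. At 24 h its signals were 2898, 2715, 3092, 2675 and 2920 in DMSO and 3863, 4157, 4397, 3792 and 4736 at 100 uM. At 48 h they were 3288, 2936, 3117, 2775 and 3000 in DMSO and 4382, 4455, 4442, 4928 and 5334 at 100 uM. The groups were apart at both times, with rises of 0.55 ± 0.068 (adjusted p = 6.7e-08) and 0.64 ± 0.068 (adjusted p = 3.26e-09). In the 6 called genes no 100 uM well overlapped the DMSO wells at 24 or 48 h, a state reached by 14.5% and 15.8% of all genes in the higher direction.

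**Figure D2:**
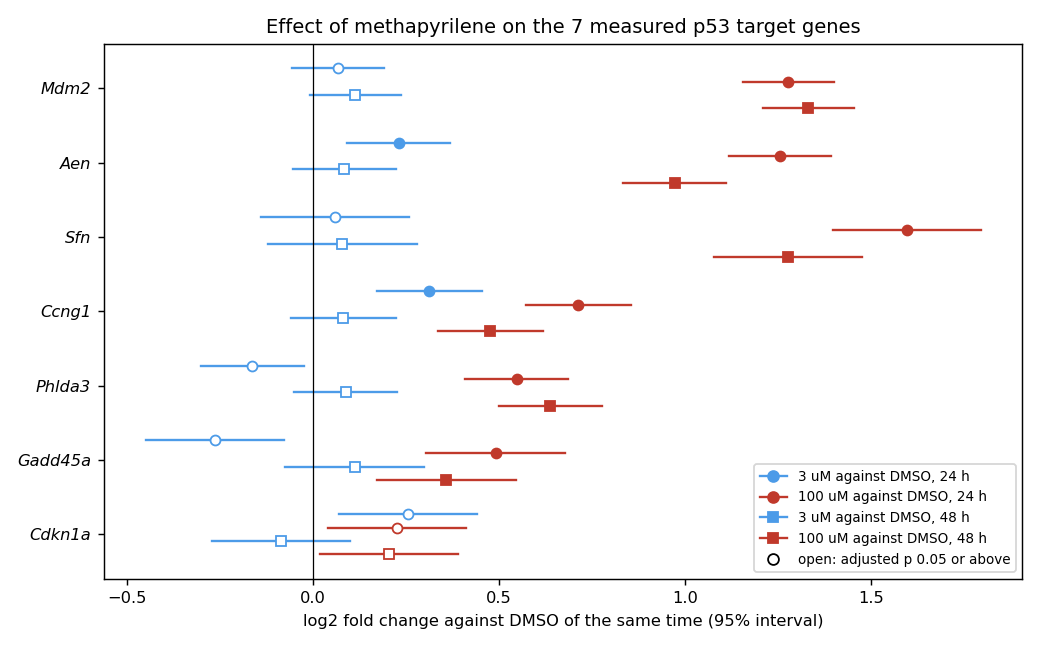
Log2 fold change against DMSO of the same time for the 7 measured p53 target genes, with 95% intervals from limma (n = 5 wells per group). Circles are 24 h and squares 48 h, blue is 3 uM and red 100 uM, and open symbols have an adjusted p of 0.05 or above. The red symbols of Mdm2, Sfn and Aen lie between 0.97 and 1.60, and the blue symbols of all 7 genes between -0.26 and 0.31.

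Cdkn1a encodes p21, the inhibitor of cyclin-dependent kinases through which p53 stops the cell cycle before DNA replication. On its brighter probe set the DMSO wells at 24 h gave 4855, 5129, 4790, 4645 and 4395, and the 100 uM wells 5083, 5209, 5783, 5719 and 6050. The groups overlapped, because the lowest dosed well was under the highest control well. The difference was 0.22 ± 0.091 at 24 h (95% interval 0.04 to 0.41, adjusted p = 0.0538) and 0.20 ± 0.091 at 48 h (95% interval 0.02 to 0.39, adjusted p = 0.0864). At 48 h the DMSO wells read 4293, 4895, 4565, 5420 and 4806 and the 100 uM wells 5231, 5126, 5477, 5772 and 5972.

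The dimmer probe set of Cdkn1a gave another picture. Its DMSO wells at 24 h read 2780, 3207, 2455, 2709 and 2794, and the 100 uM wells 4284, 5002, 4146, 5273 and 5994. The groups were apart, and the rise was 0.82 ± 0.14 (adjusted p = 1.25e-05, adjusted over the 13530 probe sets with 1 gene). At 48 h the means were 2506 ± 319 and 4876 ± 825 (SD), a rise of 0.95 ± 0.14 (adjusted p = 1.07e-06). So Cdkn1a was called at 100 uM on 1 of its 2 probe sets.

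The log2 ratio of the dimmer to the brighter probe set within an array was compared between groups, a comparison chosen after these values were seen. It was -0.78 ± 0.12 (SD) in DMSO and -0.18 ± 0.19 at 100 uM at 24 h, a difference of 0.59. At 48 h it was -0.94 ± 0.17 and -0.19 ± 0.20, a difference of 0.75. At 3 uM the ratio was -1.26 ± 0.69 (SD) at 24 h, which differed from DMSO by -0.48. At 48 h it was -0.64 ± 0.083, which differed by 0.30. At 3 uM and 24 h the dimmer probe set read 2230, 1981 and 1731 in replicates 1 to 3 and 3045 and 3259 in replicates 4 and 5. The ratio in replicates 4 and 5 lay above the DMSO mean, so the negative difference rests on replicates 1 to 3. These 4 differences describe the probe sets that prompted them, so no test is given.

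**Figure D3:**
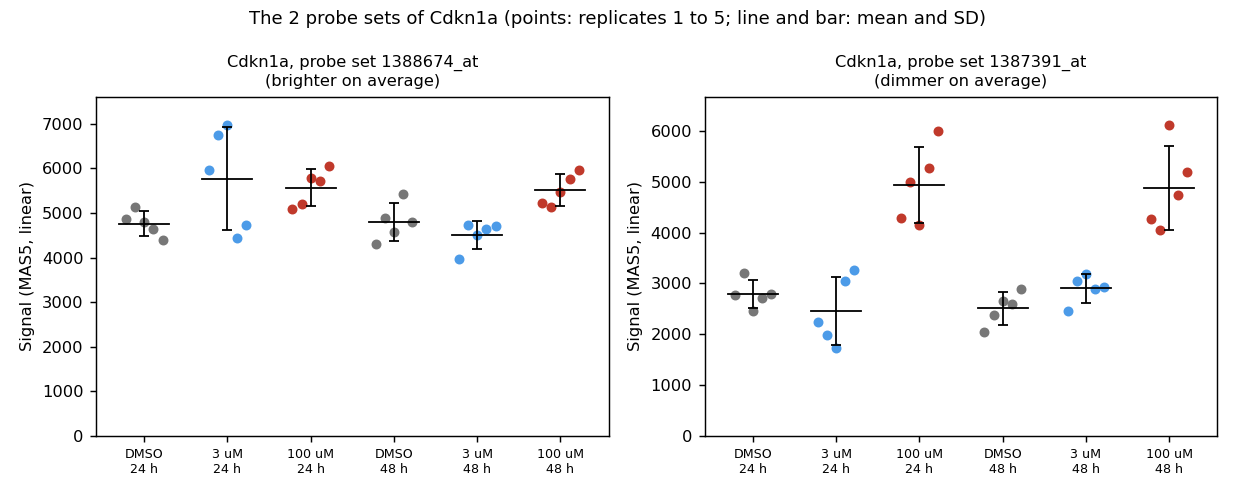
Signal (MAS5, linear scale) of the 2 Cdkn1a probe sets in the 6 groups, with points for the 5 wells and mean and SD as line and bar. On the brighter probe set the 100 uM and DMSO wells overlap, and on the dimmer one the 100 uM means are 4940 and 4876 against 2789 and 2506 in DMSO.

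Cdkn1a was called at 100 uM in 11 of 25 alternatives at 24 h and 6 of 25 at 48 h, with a value above 0 in all. These counts include the dimmer probe set and the mean of both probe sets, each called at both times. The remaining alternatives used the brighter probe set. At 24 h Cdkn1a was called under quantile normalization (adjusted p = 0.0441), a stricter filter (0.0498), only the groups compared (0.0108), array weights (0.0167), the beta-actin covariate (0.00839) and the mean of both probe sets (0.52, adjusted p = 1.74e-06). At 48 h it was called with only the groups compared (0.021), array weights (0.0187) and the mean of both probe sets (0.58, adjusted p = 2.98e-07). Replicates 1, 2 and 3 of 3 uM at 24 h gave 5960, 6745 and 6983, and replicates 4 and 5 gave 4449 and 4724. The fit takes its spread from all 30 arrays. Without those 3 arrays the Cdkn1a difference at 100 uM kept its size and was called at 24 h (adjusted p = 0.00608) and at 48 h (adjusted p = 0.013). It was also called at 24 h without replicate 2 of DMSO (0.25, adjusted p = 0.0454) or replicate 1 or 2 of 100 uM (0.26 and 0.25, adjusted p = 0.0399 and 0.04997), and at 48 h without replicate 4 of DMSO (0.25, adjusted p = 0.0461).

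At 3 uM and 24 h, 2 of the 7 genes were called higher, Ccng1 and Aen, where 2.99% of all genes tested were higher and 1.22% lower. Ccng1 read 17560, 18318, 17676, 14174 and 13000 and differed from DMSO by 0.31 ± 0.069 (adjusted p = 0.0132). Aen read 2498, 2547, 2757, 2157 and 2120 and differed by 0.23 ± 0.068 (adjusted p = 0.0463). In both genes replicates 1 to 4 stood above all DMSO wells, replicate 4 by little, and replicate 5 lay within the DMSO range. The median over the 7 genes was 0.067, against 0.014 over all genes.

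In Gadd45a replicates 1 to 3 stood apart in the other direction. It read 10658, 9377 and 9426 in them, below all DMSO wells, and 14199 and 15215 in replicates 4 and 5, a difference from DMSO of -0.26 ± 0.092 (adjusted p = 0.0864). Phlda3 read 2367, 2415, 2540, 2691 and 2757 (-0.16 ± 0.068, adjusted p = 0.149). Mdm2 (0.067 ± 0.060, adjusted p = 0.549) and Sfn (0.058 ± 0.098, adjusted p = 0.774) stayed close to DMSO. Cdkn1a differed by 0.26 ± 0.091 (adjusted p = 0.0961).

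These 3 arrays also stand apart by a control that the array carries. Beta-actin is read by probe sets at both ends of its transcript, and degraded RNA gives relatively more signal at the 3' end. Dividing the 3' by the 5' signal gave 3.93, 5.10 and 5.30 in replicates 1, 2 and 3 of 3 uM at 24 h, against 2.34 to 3.43 elsewhere. For the Gapdh control the same ratio was 1.15, 1.21 and 1.24 in these replicates, against 1.02 to 1.17 elsewhere. By Gapdh, replicate 1 thus lay within the range of the other arrays. Leaving out the 3 arrays, 0 of the 7 genes were called at 3 uM and 24 h, with Aen at 0.061 (adjusted p = 0.871), Ccng1 at 0.075 (adjusted p = 0.763) and Gadd45a at 0.086. With the log2 of the beta-actin ratio as a covariate 0 were called too, with Aen at 0.11 (adjusted p = 0.858) and Ccng1 at 0.14 (adjusted p = 0.754). Leaving out replicate 1, 2 or 3 alone also ended both calls, with Aen at 0.18 to 0.22 and Ccng1 at 0.26 to 0.28. Aen was lost as well without any single DMSO well (0.22 to 0.25), and Ccng1 without replicate 2 of DMSO (0.27, adjusted p = 0.0505). Without replicate 4 or 5 of 3 uM, 4 genes were called, with Cdkn1a higher (0.34 and 0.32) and Gadd45a lower (-0.34 and -0.36) in addition. The part of the beta-actin ratio in these values was not tested beyond this.

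**Figure D4:**
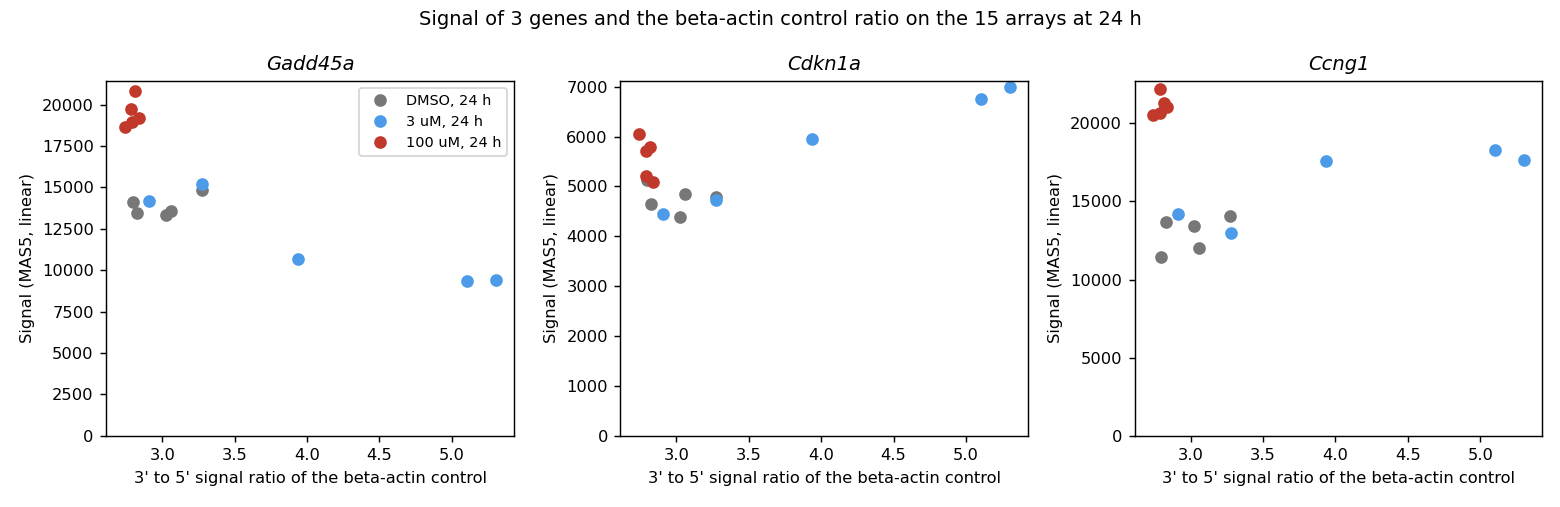
Signal (MAS5, linear scale) of Gadd45a, Cdkn1a and Ccng1 against the 3' to 5' signal ratio of the beta-actin control on the 15 arrays at 24 h, 1 point per well. The 3 wells of 3 uM at ratios of 3.93 to 5.30 have the lowest Gadd45a signals of the 15, Ccng1 signals between those of the DMSO and the 100 uM wells, and Cdkn1a signals from 5960 to 6983.

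At 3 uM and 48 h none of the 7 genes was called by limma, where 0.0391% of all genes were. The differences from DMSO ran from -0.088 for Cdkn1a to 0.11 for Mdm2, with a median of 0.084 against 0.0046 over all genes. The Mdm2 wells at 3 uM read 3582, 3660, 3599, 3705 and 3752, all above the highest DMSO well of 3510, a gap that 0.675% of all genes showed in that direction. Its difference of 0.11 ± 0.060 (95% interval -0.01 to 0.24) was not called, with an adjusted p of 0.966. In the other 6 genes the 3 uM and DMSO wells overlapped at 48 h.

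Set against each other, 100 uM was above 3 uM for 6 of the 7 genes at 24 h, where 19.8% of all genes were higher, and for all 7 at 48 h, where 16.2% were. Mdm2 was higher by 1.21 ± 0.060 at 24 h and 1.22 ± 0.060 at 48 h, and Sfn by 1.54 ± 0.098 and 1.20 ± 0.098. On its brighter probe set Cdkn1a was not called at 24 h (-0.03 ± 0.091, 95% interval -0.22 to 0.15, adjusted p = 0.825). Without the 3 arrays of 3 uM this probe set was higher at 100 uM by 0.28 (adjusted p = 0.015). At 48 h it was higher by 0.29 ± 0.091 (adjusted p = 0.0147), and without replicate 1 of 3 uM the value was 0.25 (adjusted p = 0.0564). The dimmer probe set of Cdkn1a was called higher at both times. Its values were 1.04 ± 0.14 at 24 h (adjusted p = 1.93e-07 in limma) and 0.74 ± 0.14 at 48 h (adjusted p = 7.47e-05). Gadd45a at 48 h was the weakest call, 0.25 ± 0.092 (adjusted p = 0.0414) with overlapping wells. It was lost without replicate 2, 4 or 5 of 3 uM or replicate 1, 2, 3 or 4 of 100 uM, at values from 0.21 to 0.26.

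Between 24 and 48 h the effect of 100 uM did not change by a called amount in any of the 7 genes, where 1.65% of all genes were called. The estimate was -0.28 ± 0.096 for Aen (95% interval -0.48 to -0.09, adjusted p = 0.177), -0.32 ± 0.14 for Sfn (adjusted p = 0.354) and -0.24 ± 0.098 for Ccng1 (adjusted p = 0.325). For Mdm2 it was 0.053 ± 0.085 (95% interval -0.12 to 0.23). With the beta-actin ratio as a covariate the changes of Aen (-0.34, adjusted p = 0.0321) and Ccng1 (-0.32, adjusted p = 0.026) were called. For the 3 uM effect 0 of the 7 genes and 0% of all genes were called by limma.

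In the DMSO wells themselves Mdm2 fell from 24 to 48 h, by 0.20 ± 0.060 on the log2 scale (adjusted p = 0.0454), where 1.91% of all genes were called lower. The wells did not overlap, as in 3.07% of all genes in that direction, with the lowest 24 h well at 3601 and the highest 48 h well at 3510. The call was lost without any one of replicates 2 to 5 of DMSO at 24 h or replicates 1 to 5 of DMSO at 48 h, at values from -0.22 to -0.16, and both other Mdm2 probe sets were not called (-0.04, adjusted p = 0.867, and -0.27, adjusted p = 0.606). The other 6 genes were not called, with differences from -0.05 for Ccng1 to 0.19 for Sfn.

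Of 36 further p53 target genes, listed from general knowledge but with earlier results of these data known, 27 were tested. At 100 uM, 9 were higher and 3 lower at 24 h, and 9 were higher and 3 lower at 48 h. Their median was 0.22 at 24 h and 0.15 at 48 h, below the 0.71 and 0.64 of the 7 genes described above. The 7 genes were also chosen with earlier results known, so this gap only describes the sets. The shares called were 33.3% higher and 11.1% lower at each time, against 19.8% and 15.8% of all genes at 24 h and 18.9% and 14.5% at 48 h. The higher share counts Gtse1 at each time, which passed the filter on low values only through the 100 uM wells. Leaving Gtse1 out would lower the higher share, so no conclusion is drawn from setting that share against all genes. At 3 uM limma called 1 of the 27 higher at 24 h, or 3.70% against 2.99% of all genes, and 0 at 48 h, against 0.0391%. The call was Plk2 (0.24 ± 0.068, adjusted p = 0.0396). The Plk2 call was lost without the 3 arrays of high beta-actin ratio (0.15, adjusted p = 0.637), with that ratio as a covariate (adjusted p = 0.588) and with only the groups compared (adjusted p = 0.269), alternatives added for this gene after seeing the data. It was also lost without replicate 1 or 2 of DMSO or replicate 1, 2 or 3 of 3 uM (0.19 to 0.23), under median centring (adjusted p = 0.0594) and with no variance trend (adjusted p = 0.0582).

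The growth arrest and feedback genes held 4 higher of 8 tested at 24 h, or 50% against 19.8% of all genes. At 48 h 4 were higher and 1 lower, or 50% and 12.5% against 18.9% and 14.5% of all genes. The 50% counts Gtse1 at each time and would be lower without it. No conclusion is therefore drawn from setting the 50% against the share of all genes. Gdf15, a stress cytokine secreted by the liver, rose from a signal of 683 ± 120 to 1639 ± 205 (SD) at 24 h, or 1.27 ± 0.17 (adjusted p = 2.32e-07), and by 1.08 ± 0.17 at 48 h. Plk2, a polo-like kinase, rose by 0.63 ± 0.068 and 0.49 ± 0.068, and Sertad1, a cell cycle regulator, by 0.45 ± 0.075 and 0.29 ± 0.075. Gtse1, which carries p53 out of the nucleus, was dim. Its signals ran from 22.5 to 228 in DMSO and 153 to 685 at 100 uM at 24 h, and from 20.2 to 31.2 and 270 to 530 at 48 h. Outside 100 uM every well was below the lowest array median of 361.677, so Gtse1 passed the filter on low values only through the 100 uM wells. Its call is counted among the 4 at each time, but no fold is given for it and it supports nothing here. Btg1, an antiproliferative gene named here because it was the one lower call, was at -0.21 ± 0.065 at 48 h (adjusted p = 0.00981).

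Of the apoptosis genes 3 of 10 were higher and 1 lower at 24 h, or 30% higher against 19.8% of all genes, with Tp53inp1, a cofactor of p53, at 0.32 ± 0.105, Bbc3, the pro-apoptotic protein PUMA, at 0.24 ± 0.082, Fas, a death receptor, at 0.24 ± 0.086, and Ei24 at -0.18 ± 0.055. At 48 h 4 of 10 were higher and 0 lower, or 40% higher against 18.9% of all genes. They were Pidd1 (0.61 ± 0.20), Perp (0.24 ± 0.080), Tp53inp1 (0.30 ± 0.105) and Fas (0.24 ± 0.086). These calls were near the threshold, with adjusted p from 0.011 to 0.0295. With the mean of all probe sets of the gene Fas was at -0.086 at 24 h (adjusted p = 0.749) and 0.018 at 48 h, and Perp at 0.011 at 48 h. Without 1 array the Bbc3 call was lost (replicate 3 of DMSO, 0.17, adjusted p = 0.101), as was Pidd1 (replicate 2 of DMSO, 0.46, adjusted p = 0.0723). Fas was lost without replicate 1 or 2 of DMSO or 3 or 5 of 100 uM at 24 h (0.21 to 0.23) and without replicate 1, 2 or 4 of DMSO or 2 or 3 of 100 uM at 48 h (0.23). Tp53inp1 at 48 h was lost without replicate 2 of DMSO (0.20, adjusted p = 0.14) or replicate 1 or 3 of 100 uM (0.27 and 0.29).

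Of 4 DNA repair genes tested, 1 was higher at each time, or 25% against 19.8% of all genes at 24 h and 18.9% at 48 h. The only one called was Pcna, the sliding clamp of DNA replication. Its signal went from 9002 ± 264 to 14744 ± 1028 (SD) at 24 h, or 0.71 ± 0.062 (adjusted p = 3.97e-11), and by 0.50 ± 0.062 at 48 h. Among 5 metabolism and redox genes 2 were lower at both times, or 40% against 15.8% of all genes at 24 h and 14.5% at 48 h. Gls2, the liver glutaminase, fell by 0.71 ± 0.11 at 24 h (adjusted p = 3.05e-06) and by 0.45 ± 0.11 at 48 h (adjusted p = 0.00135). Sesn1, a sestrin that restrains mTORC1, fell by 0.53 ± 0.10 and by 0.52 ± 0.10. Sesn2, its relative, was higher at 24 h only by the call (0.44 ± 0.16, adjusted p = 0.0306). That call was lost without replicate 1, 3 or 4 of DMSO or 3 or 4 of 100 uM, at values from 0.33 to 0.44.

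**Figure D5:**
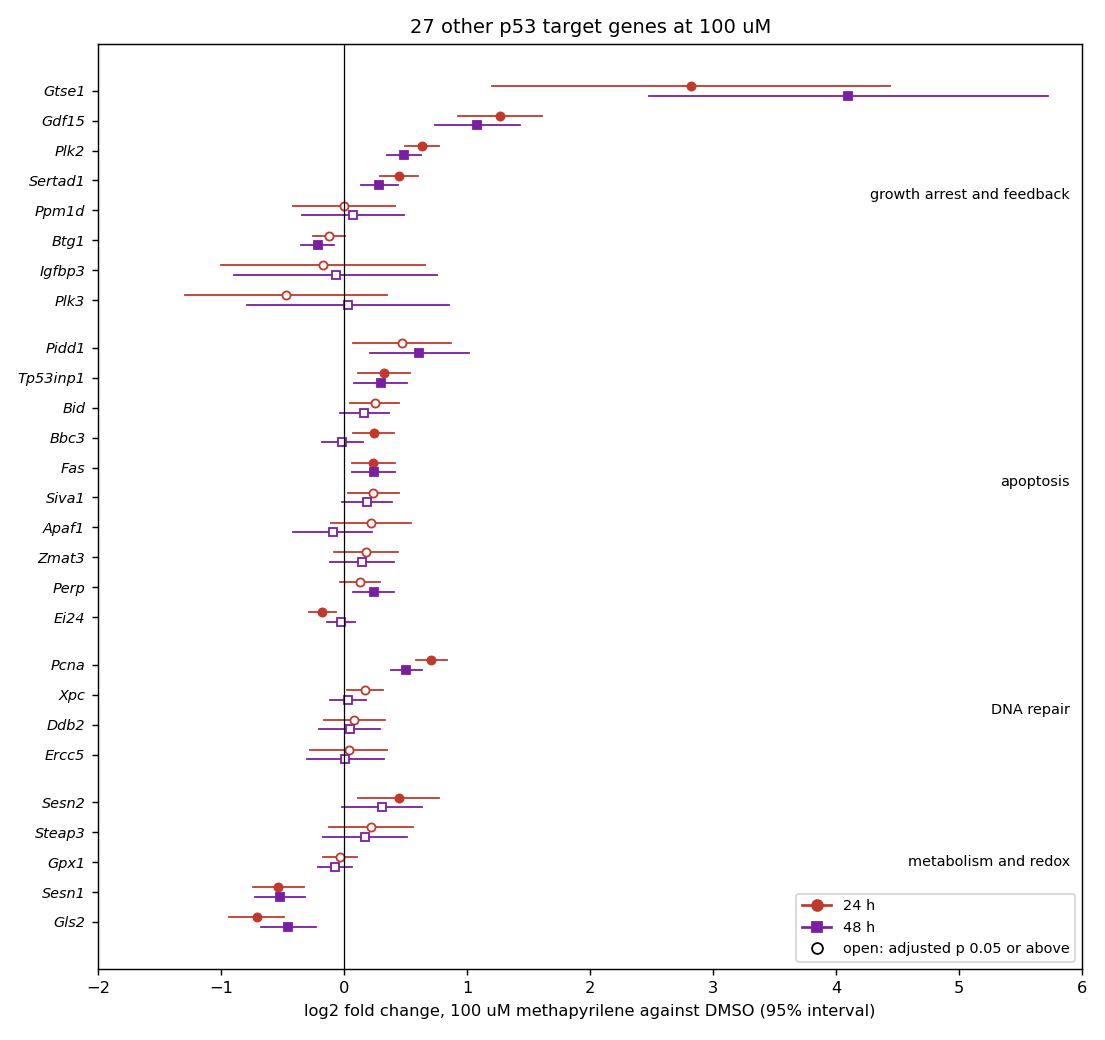
Log2 fold change of 27 other p53 target genes at 100 uM against DMSO of the same time, with 95% intervals from limma (n = 5 wells per group), red circles for 24 h and purple squares for 48 h, grouped by role. Filled symbols have an adjusted p under 0.05. Gdf15, Plk2 and Pcna lie to the right at both times, Sesn1 and Gls2 to the left, and Gtse1, which was below the array medians in DMSO, has the widest intervals. Gtse1 passed the filter on low values only through the 100 uM wells, so its place in the plot supports nothing.

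Upstream of the targets, 7 of 11 listed genes were tested. None was called by limma at 100 uM and 24 h, where 19.8% of all genes were higher and 15.8% lower. At 48 h 1 of the 7 was higher, or 14.3% against 18.9% of all genes, which is near the background. This was Chek1, a checkpoint kinase, higher by 0.54 ± 0.21 (adjusted p = 0.0425). It was lost without replicate 1 or 4 of DMSO or replicate 1, 2 or 4 of 100 uM, at values from 0.42 to 0.55. None of these genes was called at 3 uM, where 2.99% of all genes were higher and 1.22% lower at 24 h. The share called at 48 h was 0.0391%. Mdm4, the partner of Mdm2, was not called in any of the 4 comparisons with DMSO.

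Relatives of the members, such as the other 14-3-3 proteins and the other Gadd45 and Btg family genes, were described by counts too. At 24 h 7 of 22 tested were higher and 5 lower at 100 uM, 31.8% and 22.7% against 19.8% and 15.8% of all genes. At 48 h 5 were higher and 3 lower, 22.7% and 13.6% against 18.9% and 14.5%, which is near the background. Their medians were 0.044 and 0.063. Gadd45b rose by 0.60 ± 0.084 and 0.73 ± 0.084, from a signal of 4760 ± 641 to 7194 ± 318 (SD) at 24 h. Btg3, an antiproliferative relative of Btg2, rose by 0.80 ± 0.090 and 0.63 ± 0.090, and Ywhaz, a 14-3-3 protein, by 0.48 ± 0.059 and 0.35 ± 0.059. Tob1, also of the Btg family, fell by 0.33 ± 0.050 and by 0.27 ± 0.050. At 3 uM limma called 0 of the 22 at 48 h, and 2 lower and 0 higher at 24 h. The 2 are 9.09% of the 22, against 1.22% of all genes called lower at 24 h. They were Tob1 (-0.28 ± 0.050, adjusted p = 0.00394) and Cdkn1b, the inhibitor p27 (-0.30 ± 0.082, adjusted p = 0.0315), named for being the 2 calls. Both calls were lost without the 3 arrays of high beta-actin ratio (-0.23 and -0.12), with the ratio as a covariate (-0.22 and -0.21) and with only the groups compared (adjusted p = 0.229 and 0.269), alternatives added for these genes after seeing the data. Cdkn1b was also lost without replicate 1 or 2 of DMSO or replicate 1, 2 or 3 of 3 uM (-0.28 to -0.25) and with no variance trend (adjusted p = 0.0542), and both were lost under median centring (adjusted p = 0.0623 for Tob1 and 0.0908 for Cdkn1b).

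For each gene the genes with the most similar 4 log2 fold changes (3 and 100 uM at both times, which share DMSO wells in pairs) were found by the root mean square difference. Nearest to Mdm2 were 2810025M15Rikl (0.157), Sdcbp2 (0.158), Gpatch11 (0.158), Renbp (0.166) and Mfap5 (0.166). Sdcbp2 was at 1.29 and 1.37 at 100 uM and Gpatch11 at 1.07 and 1.10. The nearest gene was Zdhhc18 for Aen (0.078), Fosl1 for Sfn (0.147), Pa2g4 for Ccng1 (0.035), Eef1e1 for Gadd45a (0.037), Gas5 for Phlda3 (0.032) and Xrn2 for Cdkn1a (0.025). The distances are larger for the genes with larger responses, and each describes these 4 values only.

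The cells were checked against markers. All 8 measured hepatocyte markers of 9 listed were above the array's median signal on every array, and their summed signal lay between 341212 and 523995 over the wells. At 100 uM 4 of the 8 were called lower at 24 h, or 50% against 15.8% of all genes, and 0 higher. At 48 h 2 of the 8 were lower, or 25% against 14.5%, and 0 higher. The rest were not called. Tat, a liver aminotransferase, fell by 0.66 ± 0.059 at 24 h and by 0.41 ± 0.059 at 48 h, and Cps1, of the urea cycle, by 0.36 ± 0.081 and by 0.38 ± 0.081. Hnf4a (-0.37 ± 0.080) and Fgb (-0.35 ± 0.086) were lower at 24 h. The summed signal of these markers was 407461 to 506549 in DMSO and 381258 to 479210 at 100 uM at 24 h, and 388558 to 459650 and 356880 to 400722 at 48 h.

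Markers of other liver cells were mostly dim. Above the median on every array were 1 of 7 Kupffer cell markers, 2 of 8 stellate cell markers, 1 of 4 endothelial markers and 1 of 5 cholangiocyte markers. The deposited signals hold no 0. At 48 h and 100 uM the summed cholangiocyte markers were 11063 to 12023 against 12600 to 13594 in DMSO, and at 24 h 11090 to 11967 against 9925 to 11037. The Kupffer cell sum was 8154 to 9005 against 8296 to 9969 at 24 h and 7097 to 8717 against 8609 to 9301 at 48 h. The stellate cell sum was 3359 to 4040 against 3097 to 3880 and 3390 to 4059 against 3212 to 3728, and the endothelial sum 878 to 1467 against 783 to 1363 and 909 to 1278 against 795 to 1139. Past the filter, 4 Kupffer cell, 5 stellate cell, 1 endothelial and 2 cholangiocyte markers were tested. Called at 100 uM were Lyz2 (-0.29 ± 0.080 and -0.21 ± 0.080), Epcam (0.15 ± 0.057 and -0.15 ± 0.057), Krt19 at 48 h (-1.49 ± 0.44), Cd5l at 48 h (0.58 ± 0.23) and Des at 48 h (0.58 ± 0.21). Of all genes 19.8% were higher and 15.8% lower at 24 h, and 18.9% and 14.5% at 48 h. Krt19 and Cd5l did not pass the stricter filter on low values, so their values rest on dim signals. The Lyz2 and Cd5l calls at 48 h, the Des call and both Epcam calls were each lost with some single wells left out, with Lyz2 down to -0.14, Cd5l to 0.48, Des to 0.46 and Epcam to 0.13 and -0.14. The part of these markers in the p53 target results was not tested.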

How the data were processed

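Each of 30 wells was measured on 1 rat expression array. The deposited intensity values are linear probe set signals that the authors made with MAS5, per the submitters' processing notes; the version and any detection calls are not given in the sources used here. The 2% trimmed mean was about 1501 on every array and medians ran from 361.677 to 471.419, so arrays were scaled but not equalised. The number of arrays limits the precision.

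Of 31099 probe sets, 20826 carried 1 gene symbol, 436 several, 9780 none and 57 were controls. Signals were log2 transformed without a pseudocount, filtered to those above their array's own median on 5 or more arrays, and reduced to the brightest probe set per gene (10222 genes). limma 3.58.1 in R 4.3.3 estimated 6 group means from the 30 arrays, leaving 24 residual degrees of freedom, and moderated variances by eBayes with an intensity trend. All tests were two-sided, p-values were adjusted within each of 9 comparisons, and calls needed an adjusted p below 0.05. Wells were not paired, since replicate numbers follow deposit order. On simulated data with 200 genes changed in 100 uM against DMSO at 24 h (10222 genes), the fit found 70% at a 1.5-fold and 91% at a 2-fold change and made 6 false calls.

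All members are named, and of each other list up to 4 called genes by adjusted p at 100 uM, plus the likeness rule. The members and lists were chosen with earlier results of these data known, and so was leaving out 3 arrays. The Cdkn1a probe set ratio was chosen after its values were seen and is given without a test. Alternatives for the list genes called at 3 uM were added after seeing the data. Alternatives changed the scaling, filter, pseudocount (16), probe sets, variance trend, groups fitted, weights, block, covariate, replicates and thresholds. Left out were probe sets with several genes or none. Promoters came from RefSeq (GRCr8). No well was identical to another (log2 correlations within a group 0.9596 to 0.9825). Plots used Python 3.11.15 and matplotlib 3.10.9.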

Additional observations from a re-analysis of the deposited data

Results flagged for a closer look

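Of the 42 sets of 5 wells examined (7 genes in 6 groups), 3 held a well far from the other 4, where chance alone gives about 1 in 20. Replicate 5 of 3 uM at 24 h had the lowest Mdm2 signal of its group, 3429, against 4090 in the next well. Replicate 5 of DMSO at 48 h had the lowest Mdm2 signal, 2998, against 3453 in the next. Replicate 1 of 3 uM at 48 h had the lowest Cdkn1a signal, 3965, against 4501 in the next. Without that Cdkn1a well, the difference between 100 uM and 3 uM at 48 h was 0.25 (adjusted p = 0.0564 in limma). Without that DMSO well, the Mdm2 difference between the DMSO groups was -0.16 (adjusted p = 0.184).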

How the results depend on the processing

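Of the 7 genes, between 4 and 7 were called at 100 uM against DMSO under every alternative at either time, and between 6 and 7 with any 1 replicate left out. The 4 came with the added demand of a 1.5-fold change. At 3 uM and 24 h the 2 calls became 1 under quantile normalization, median centring, no filter on low values or the mean of all probe sets, and 5 with array weights (3 of them higher). They became 0 with only the groups compared, the beta-actin covariate, without the 3 arrays, at an adjusted p under 0.01 or with 1.5-fold, and ranged from 0 to 4 with any 1 replicate left out. At 3 uM and 48 h 0 were called throughout. For 100 uM against 3 uM at 48 h the 7 became 3 with 1.5-fold, and 6 to 7 with a replicate left out. The call of Mdm2 between DMSO at 48 h and 24 h (1 gene) became 0 under median centring, the mean of all probe sets, no variance trend, only the groups compared, the beta-actin covariate, an adjusted p under 0.01 or 1.5-fold, and 0 to 1 with a replicate left out. For the change between times, 2 genes were called at 100 uM with the beta-actin covariate and 4 at 3 uM with array weights, against 0, and 0 to 1 at 3 uM without a replicate.

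Runs of 6 array numbers, each with 1 array of every group, were tried as a replicate block. They do not pair the wells by the check made: the closest array of another group was in the same run for 8 of 30 arrays, and deviations within a run correlated between -0.11 and 0.17. With the replicate block 6 members were called at 100 uM at each time and 2 at 3 uM and 24 h, as without it, and the Mdm2 call between DMSO times became 0 (adjusted p = 0.0567). Gadd45a between the doses at 48 h was not called (adjusted p = 0.0565).

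Cdkn1a between 100 uM and 3 uM at 24 h, at -0.03, became 0.51 with the mean of all probe sets, 0.28 without the 3 arrays and 1.04 on its dimmer probe set. Aen at 3 uM and 24 h became -0.035 on its dimmer probe set, and Fas at 100 uM and 24 h -0.086 with the mean of all probe sets. The cause was not tested. A further 53 values changed sign while not called on either side, none above 0.44 in size. Counts over all genes at 24 h and 48 h for 100 uM, 3647 and 3415, became 969 and 857 with 1.5-fold. The 431 at 3 uM and 24 h became 248 with median centring, 0 with only the groups compared, 2889 with array weights, 1 with the beta-actin covariate, 4 without the 3 arrays, 54 at 0.01, 19 with 1.5-fold and 42 to 1650 with a replicate left out. The 4 at 3 uM and 48 h became 2 with median centring, under stricter thresholds and, at the lowest, with a replicate left out. Between the doses 3970 became 2440 with the covariate and 1001 with 1.5-fold, and 2945 became 662. Between DMSO times 458 became 243 with median centring, 692 with array weights, 241 and 104 under stricter thresholds. For the change of the 100 uM effect 169 became 58 with median centring, 261 with array weights, 266 without the 3 arrays, 63 at 0.01 and 67 with 1.5-fold, and for 3 uM 0 became 1616 with array weights and up to 153 with a replicate left out. Median centring moved the share of calls that were higher from 56.6% to 44.6% at 100 uM and 48 h and from 71.0% to 90.7% at 3 uM and 24 h, and shifted the median of all genes by under 0.1.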
